A study of Mus musculus with 20 samples.

Results

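Heat shock chaperone genes were examined in the mouse aorta after whole-body proton or gamma irradiation. The group comprised the 10 rows of the deposited sense-strand gene count table with the symbols Hspa1a, Hspa1b, Hspa8, Hsp90aa1, Hsp90ab1, Hsph1, Dnaja1, Dnajb1, Hspb1 and Hspd1, out of 21078 genes in all. All 10 averaged 5 or more counts per mouse and so were among the 13124 genes tested.

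Heat shock proteins bind unfolded or partly folded proteins and return them to their native shape, or pass them on for degradation. Heat, oxidants and other causes of protein damage release the transcription factor Hsf1 from the chaperones that hold it, and Hsf1 trimers then bind heat shock elements, inverted repeats of a short unit, in the promoters of these genes. In the arterial wall the small heat shock protein encoded by Hspb1 is abundant in smooth muscle, where it associates with actin filaments, and Hsp90 serves as a partner of kinases, steroid receptors and the endothelial nitric oxide synthase.

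The study followed 20 male wildtype C57BL/6 mice aged 10 to 12 weeks, 10 exposed to high energy protons and 10 to gamma rays from a caesium source. Each group had 1 mouse at each of 10 whole-body doses, 0, 5, 10, 25, 50, 75, 100, 125, 150 and 200 cGy. The 2 mice at 0 cGy were sham controls, restrained in the irradiator of their group without exposure. The thoracic aorta was taken 4 h after irradiation, and polyadenylated RNA was sequenced with strand information. No dose had a replicate, so trends over doses and pairs of mice at the same dose carry the comparisons, and every p-value measures spread between single mice. Each radiation type was given with its own machine, so that type and machine cannot be told apart.

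Total counts were nearly equal, from 6051657 to 6058006 per mouse, because the deposited counts had been drawn down to a common depth. Known targets of the DNA damage response, Cdkn1a, Mdm2 and Aen, rose with both types. Cdkn1a, the cell cycle inhibitor p21, rose by 1.39 log2 units per 100 cGy of protons (edgeR slope, SE 0.22, adjusted p = 0.00518) and by 1.59 with gamma rays (SE 0.24, adjusted p = 0.00214). The aorta's smooth muscle markers (Acta2, Myh11, Tagln, Cnn1 and Smtn) summed to 38361 to 55336 CPM (counts scaled to a common library size) in 19 mice. The proton mouse at 75 cGy stood apart with 25899 CPM, together with 2301 CPM of 4 heart muscle markers against 6.93 to 39.7 CPM in the other mice, and 2406 CPM of 6 brown adipocyte markers against 156 to 939 CPM. In bulk tissue, fewer cells of a type and less RNA per cell cannot be told apart. The 4 mice at 150 and 200 cGy also shared a relation of read count to GC content (r across genes of -0.402 to -0.350, against -0.0183 to 0.285 in the 16 other mice), so values are also given for 0 to 125 cGy alone where that changes a direction.

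The promoters of the group are shown because heat shock elements are the sequence feature through which the genes are known to be controlled together. RefSeq start sites (GRCm38.p6) were matched for 7 of the 10 genes, and Hspa8, Hsp90aa1 and Hsp90ab1 were not in the table. The motifs GAANNTTC and TTCNNGAA, each its own reverse complement and hence read on both strands, were searched in the 250 bases before each start. Several genes have more than 1 listed start, and the 7 genes had 12 promoter entries. At least 1 of these motifs was held by 7 of the 12 entries, against 12.8% of all 32851 entries. Counted per gene, with a match at any listed start, these were 6 of the 7 chaperone genes, all but Dnajb1, against 14.5% of all genes with an entry. Dnaja1 held it at 1 of 3 starts and Hspd1 at 1 of 2. A longer run of 3 alternating units, in which overlapping motifs share a unit, was found in 1 of the 12 entries, at Hspd1, against 0.466% of all entries. A match is a description of the letters only. The 150 bases before the start are printed 5′ to 3′ on the gene's strand, with the motif in capitals, for Hspa1a, Hspa1b, Hspb1 and Hsph1.
Hspa1a, chr17:34972157-34972306, minus strand: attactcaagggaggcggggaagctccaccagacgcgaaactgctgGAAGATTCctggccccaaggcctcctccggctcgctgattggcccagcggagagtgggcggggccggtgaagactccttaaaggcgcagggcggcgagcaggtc
Hspa1b, chr17:34959239-34959388, minus strand: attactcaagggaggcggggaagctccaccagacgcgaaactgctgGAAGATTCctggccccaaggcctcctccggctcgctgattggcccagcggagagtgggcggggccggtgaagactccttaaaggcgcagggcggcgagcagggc
Hspb1, chr5:135887769-135887918, plus strand: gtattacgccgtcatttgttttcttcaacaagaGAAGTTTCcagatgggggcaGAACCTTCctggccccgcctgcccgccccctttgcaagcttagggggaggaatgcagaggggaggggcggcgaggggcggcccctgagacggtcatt
Hsph1, chr5:149636337-149636486, minus strand: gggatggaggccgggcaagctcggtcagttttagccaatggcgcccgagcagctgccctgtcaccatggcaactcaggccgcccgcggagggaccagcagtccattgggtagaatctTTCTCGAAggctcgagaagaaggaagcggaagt
For Hspd1 only the 30 bases around the run of units are printed, upstream of its second listed start.
Hspd1, chr1:55088053-55088082, minus strand: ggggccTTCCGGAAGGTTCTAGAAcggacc

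In the inducible Hsp70 genes Hspa1a and Hspa1b the motif began at -104 from the start. In Hspb1 a pair of motifs began at -117 and -97, and in Hsph1 a single motif at -33. The 250 upstream bases of Hspa1a and Hspa1b were identical at 247 positions. Their transcripts are near copies too: of the 2827 windows of 100 bases in the Hspa1a transcript, 1350 (47.8%) also occurred in Hspa1b. A single read from such a window does not tell the genes apart, and how the deposited counts treat such reads was not examined. The separate counts and levels of Hspa1a and Hspa1b are therefore uncertain.

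Expression levels spanned a wide range. On a scale corrected for exon length (RPKM, CPM per kilobase of annotated exon), Hspb1 had the highest level of the group and Dnaja1 the lowest. Hspb1 (chromosome 5, 136363789 to 136365433, plus strand, mm9) was at 433 ± 131 RPKM in proton mice and 684 ± 123 in gamma mice (SD, n = 10 each), and 99.7% of the genes tested had a lower level over all mice. Hsp90ab1, the constitutive cytosolic Hsp90 (chromosome 17, 45704724 to 45710220, minus strand), followed at 423 ± 29.8 and 485 ± 74.4 RPKM. The order of Hspb1 and Hsp90ab1 was not separable in proton mice, where their means differed by less than 1 SD of Hspb1.

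Hspa8, the constitutive Hsc70 that folds new proteins and uncoats clathrin vesicles (chromosome 9, 40609067 to 40613283, plus strand), was at 203 ± 65.4 RPKM in proton mice and 271 ± 66.0 in gamma mice. Hsp90aa1, the stress-inducible cytosolic Hsp90 (chromosome 12, 111928815 to 111940938, minus strand), was at 85.0 ± 17.1 and 109 ± 20.0 RPKM. Hspd1, the Hsp60 chaperonin of the mitochondrial matrix (chromosome 1, 55134679 to 55145087, minus strand), was at 68.1 ± 39.9 and 61.1 ± 11.2 RPKM, with most of the proton spread in 1 mouse. Hsp90aa1 and Hspd1 are neighbours in this order whose values overlapped in proton mice but not in gamma mice.

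Hsph1, the Hsp110 that exchanges nucleotide on Hsp70 (chromosome 5, 150416862 to 150438951, minus strand), was at 23.3 ± 6.16 and 29.4 ± 5.70 RPKM. The remaining genes lay within a narrow band. Hspa1b (chromosome 17, 35093381 to 35096183, minus strand) was at 15.5 ± 5.30 and 14.1 ± 1.81 RPKM, and Hspa1a (chromosome 17, 35106144 to 35109069, minus strand) at 12.5 ± 3.50 and 11.4 ± 2.19. Both inducible Hsp70 genes thus stood far below Hspa8 in the same animals.

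The J-domain co-chaperones, which bring clients to Hsp70 and start its ATPase, were low as well. Dnajb1 (chromosome 8, 86132074 to 86135801, plus strand) was at 14.1 ± 1.65 and 13.9 ± 1.53 RPKM. Dnaja1 (chromosome 4, 40669183 to 40684182, plus strand) was at 10.0 ± 1.72 and 10.3 ± 1.48 RPKM. In the order Hspa1b, Dnajb1, Hspa1a and Dnaja1, the gap between Dnajb1 and Hspa1a in gamma mice exceeded the SD of both genes, and the other gaps between neighbours were smaller than the larger of their SDs.

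The genes also differed in how much they varied between mice. The residual SD of log2 CPM around each type's own dose line was 0.45 for Hspa8, and 95.3% of the 213 genes with a similar mean count (within 2-fold) had a smaller one. Hspd1 (0.46, 93.2%), Hspa1b (0.38, 91.9%), Hspa1a (0.38, 91.6%) and Hspb1 (0.33, 91.2%) also lay among the more variable genes of their count range. Hsp90ab1, at 0.13, varied less than most, with 10.4% of similar genes below it. Dnajb1 lay near the middle, at 0.17 and 47.4%. The residual SD pools both types, whose spreads were not alike. In proton and gamma mice the SD of log2 CPM was 0.57 and 0.25 for Hspd1, and 0.48 and 0.18 for Hspa1b. It was 0.52 and 0.34 for Hspa8, 0.43 and 0.28 for Hspa1a, and 0.41 and 0.28 for Hspb1. For Hsp90ab1 it was 0.10 and 0.21, the larger in gamma mice.

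**Figure D1:**
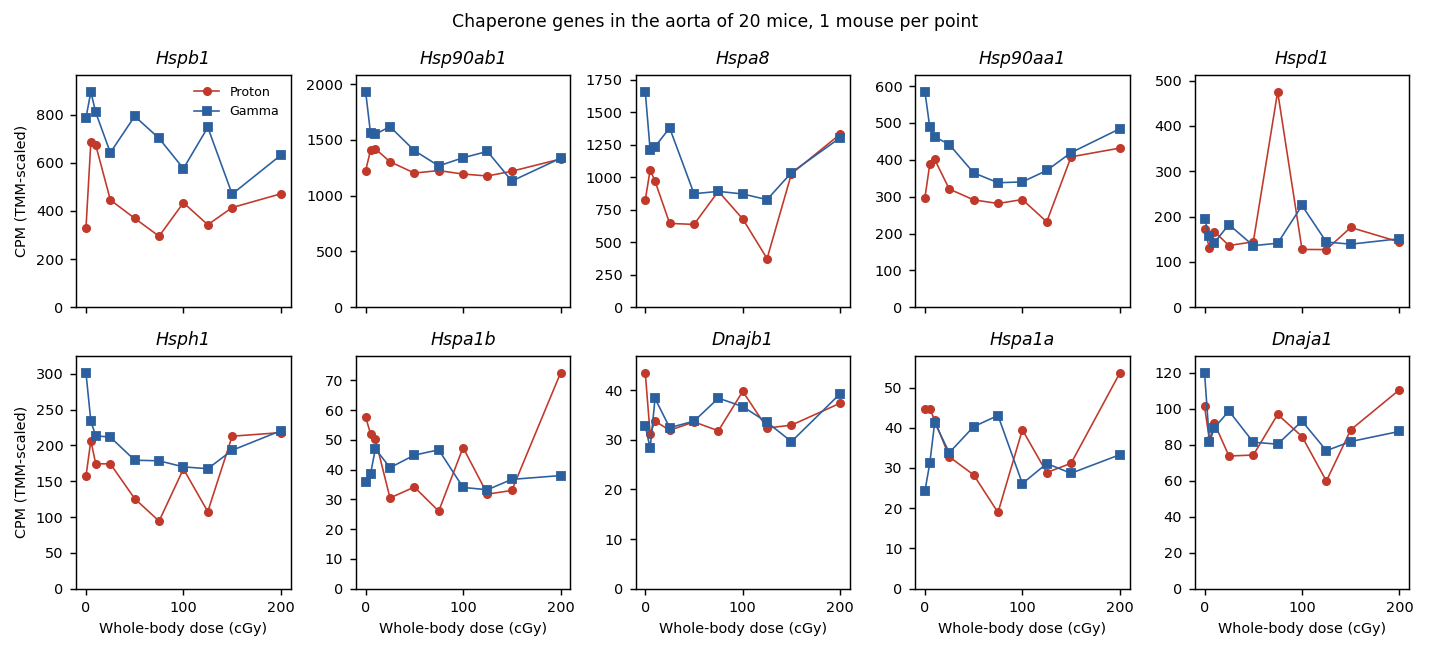
TMM-scaled CPM (vertical axes from 0) against whole-body dose in cGy for each of the 10 genes, with 1 mouse per point, proton mice as red circles and gamma mice as blue squares. The gamma sham mouse is the highest gamma mouse for Hsp90ab1, Hspa8, Hsp90aa1, Hsph1 and Dnaja1, and the proton mouse at 75 cGy stands far above all others for Hspd1.

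The first question was whether the chaperone genes followed the dose of gamma rays. Of the 10 genes, 1 fell and none rose with gamma dose by edgeR's quasi-likelihood test (adjusted p of at most 0.1 over all genes tested), where 2.21% of all genes fell and 5.44% rose. The gene that fell was Hsp90ab1. It was at 1931 CPM in the gamma sham mouse, had a median of 1400 CPM over the 10 gamma mice, and was lowest, 1131 CPM, at 150 cGy. The slope was -0.23 log2 units per 100 cGy (SE 0.07, adjusted p = 0.0580). Fibroblast markers went the same way at the ends of its gamma range. Their 4 genes (Col1a1, Dcn, Lum and Pdgfra) summed to 4930 CPM in the gamma sham mouse, the highest of the 20 mice. They summed to 1509 CPM in the gamma mouse at 150 cGy, the lowest. This did not hold in every mouse: the proton mouse at 125 cGy had 4879 CPM of them, with Hsp90ab1 at its lowest proton value, 1177 CPM. Over the 20 mice, r of Hsp90ab1 with these markers was 0.38, and their part in the fall was not tested. The call rested on single mice. The adjusted p was 0.126 without the gamma sham mouse (slope -0.18), 0.222 without the gamma mouse at 150 cGy (slope -0.20), 0.10015 without the one at 200 cGy (slope -0.34), and 0.470 over 0 to 125 cGy alone (slope -0.32).

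The gamma slopes of the other 9 genes did not pass. The estimates of 9 of the 10 genes, Hsp90ab1 included, were below 0, with a median of -0.12 against 0.01 over all genes tested, of which 53.5% were above 0. The gene above 0 was Dnajb1 (0.07, SE 0.08, adjusted p = 0.768). Hspb1 had the steepest estimate, -0.26 (SE 0.15, adjusted p = 0.399), and ranged from 470 CPM at 150 cGy to 895 CPM at 5 cGy with a median of 725. Hsp90ab1 was the only gene of the group with an unadjusted edgeR p under 0.05 for a fall, a mark passed by 6.92% of all genes. Ranks make no assumption of a straight line. In the exact permutation test of Spearman's rho with dose, none of the 10 genes passed an adjusted p of 0.1 in gamma mice, where 0.411% of all genes fell and 1.9% rose. Hspb1 (rho = -0.794, one-sided p = 0.00439, adjusted p = 0.204) and Hsp90ab1 (rho = -0.782, one-sided p = 0.00527, adjusted p = 0.219) were the 2 members with an unadjusted p under 0.05 for a fall, against 8.86% of all genes.

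Much of the gamma pattern lay between the sham mouse and the irradiated mice. The 5 genes Hspa8, Hsp90aa1, Hsp90ab1, Hsph1 and Dnaja1 were lower than in the gamma sham mouse at 9 of 9 doses, and Hspd1 at 8 of 9. Thus 6 of the 10 genes were below the sham mouse at 8 or more doses, where 20.0% of all genes were. Hspa8 was at 1657 CPM in the sham mouse, and its irradiated values were 0.4995 to 0.832 times that level, with a median of 0.625. Hsph1 was at 301 CPM in the sham mouse and at 0.556 to 0.775 times that level after irradiation, with a median of 0.642. The medians were 0.718 for Hsp90aa1, 0.723 for Hsp90ab1 and 0.682 for Dnaja1. This comparison has 1 sham mouse and no test, and a high value in that mouse lowers all 9 ratios at once.

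The inducible Hsp70 genes went the other way in the same mice. Hspa1a was lowest of the gamma mice in the sham, at 24.3 CPM, had a median of 32.2 and reached 43.0 CPM at 75 cGy, so that all 9 irradiated mice were above the sham. Hspa1b ranged from 33.2 CPM at 125 cGy to 47.0 at 10 cGy with a median of 38.3, and 2 of 9 irradiated mice were below the sham. Neither had a slope that passed (Hspa1a -0.06, SE 0.18, adjusted p = 0.930, and Hspa1b -0.10, SE 0.18, adjusted p = 0.857).

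After proton radiation no gene of the group rose or fell (0 of 10, edgeR adjusted p of at most 0.1), where 1.6% of all genes rose and 0.16% fell, and none had an unadjusted p under 0.05 in either direction, a mark passed by 13.3% of all genes. The median of the 10 slopes was 0.04 log2 units per 100 cGy, against 0.00 over all genes. The rank trend also called 0 of 10, where 0.198% of all genes rose and 0.0% fell. The slopes lay between -0.18 (Hspb1, SE 0.14, adjusted p = 0.676) and 0.14 (Hspa8, SE 0.18, adjusted p = 0.845).

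**Figure D2:**
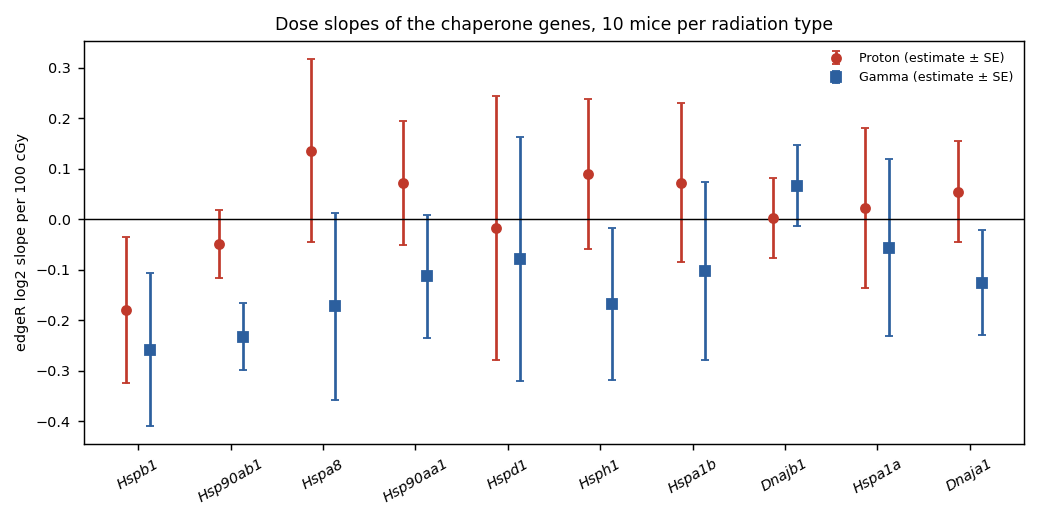
edgeR log2 slope per 100 cGy (vertical axis) with its standard error for each of the 10 genes, red circles for 10 proton mice and blue squares for 10 gamma mice. The gamma estimates are below 0 for 9 genes and the proton estimates scatter around 0, and the Hsp90ab1 gamma slope of -0.23 is the one past an adjusted p of 0.1.

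The proton values did not lie along their lines. Of the 10 genes, 5 were lowest at 125 cGy, where 9.2% of all genes were lowest, and 6 were highest at 200 cGy, where 16.3% of all genes were highest. The 4 genes Hspa1a, Hspa1b, Hsph1 and Hspb1 were lowest at 75 cGy, where 24.0% of all genes were, in the mouse that stood apart with 25899 CPM of smooth muscle markers and raised brown adipocyte and heart muscle markers. The part of its tissue content in these low values was not tested. Hspa8 was at 826 CPM in the proton sham mouse, 374 CPM at 125 cGy and 1331 CPM at 200 cGy, with a median of 859. Hsp90aa1 was lowest at 125 cGy (232 CPM) and highest at 200 cGy (432 CPM), with a median of 309. Over 0 to 125 cGy alone the proton slopes were below 0 for 9 of 10 genes and for 42.8% of all genes, -0.70 for Hspa8 (adjusted p = 0.809), -0.44 for Hsp90aa1 (adjusted p = 0.809) and -0.51 for Hsph1 (adjusted p = 0.983). The gamma slopes over the same doses were -0.70 (adjusted p = 0.420), -0.51 (adjusted p = 0.277) and -0.54 (adjusted p = 0.547). None of these passed. The mouse at 200 cGy, where 6 genes were highest, was 1 of the 4 mice whose GC relation differed from the rest, and the part of GC content in its values was not tested.

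The inducible Hsp70 genes were lowest in the proton mouse at 75 cGy, the one with low smooth muscle markers, and highest in the one at 200 cGy. Hspa1b was at 57.6 CPM in the proton sham mouse, 26.0 CPM at 75 cGy and 72.5 CPM at 200 cGy, with a median of 40.8. Hspa1a was at 44.7, 18.9 and 53.6 CPM in the same mice, with a median of 36.1. Leaving the mouse at 75 cGy aside, the lowest proton values were 30.5 CPM for Hspa1b, at 25 cGy, and 28.3 CPM for Hspa1a, at 50 cGy. Below the proton sham mouse at 8 or more of 9 doses were 3 of the 10 genes, Hspa1b, Dnaja1 and Dnajb1, where 14.6% of all genes were. Dnajb1 was at 43.5 CPM in the sham mouse and at 0.717 to 0.915 times that level in all 9 irradiated proton mice. Immediate early genes, which respond to handling and stress, summed to 542 CPM in the proton mouse at 200 cGy, the highest of the 20 mice, against a median of 264 CPM over the mice other than the one at 75 cGy. The gamma mouse at 25 cGy had 507 CPM of them, with Hspa1a at 33.8 CPM and Hspa1b at 40.7 CPM. Over the 20 mice, r of these genes was 0.53 with Hspa1a and 0.61 with Hspa1b, and their part in the Hsp70 levels was not tested.

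Whether the slopes differed between the radiation types was tested in the same fit. The difference did not pass for any of the 10 genes, nor for any gene of the table (0.0% at an adjusted p of 0.1). At an unadjusted p under 0.05 there were 0 of 10 members and 1.94% of all genes. The proton slope was above the gamma slope for 9 of 10 genes, by a median of 0.18 log2 units per 100 cGy, where 49.3% of all genes were above 0 with a median of 0.00. This direction depended on the highest doses. Over 0 to 125 cGy alone, 4 of 10 differences were above 0, where 43.6% of all genes had a difference below 0. The differences of Hspa1a (-0.42), Hspa1b (-0.30), Hspa8 (-0.0034), Dnaja1 (-0.016) and Hspb1 (-0.31) turned below 0. The differences of these 5 genes were also below 0 without the proton mouse at 200 cGy, where 49.7% of all genes were below 0. The nearest to the threshold in all 20 mice was Hsp90ab1, with a difference of 0.18 (SE 0.09, p = 0.0637, adjusted p = 0.99997). A gamma call for Hsp90ab1 and none for protons is therefore not a shown difference between the types.

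Levels at matched dose set each gamma mouse beside the proton mouse of the same dose. Hspb1 was higher in the gamma mouse of all 10 pairs. It ranged from 295 to 687 CPM in proton mice (median 424) and from 470 to 895 CPM in gamma mice (median 725), with 6 gamma mice above every proton mouse. The edgeR difference was 0.69 log2 units (SE 0.12, p = 1.22e-04), and the adjusted p of 0.133 did not pass 0.1. No gene of the table passed that threshold (0.0%, smallest adjusted p = 0.121). With DESeq2, Hspb1 passed (0.70, adjusted p = 1.03e-04), as did Hsp90aa1 (adjusted p = 0.0125) and Hspa8 (adjusted p = 0.0822). Over all genes, that DESeq2 comparison called 53 higher and 17 lower in gamma mice.

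The Hsp90 and Hsc70 machinery was also higher in most gamma mice. Hsp90aa1 was higher in all 10 pairs, from 338 to 584 CPM in gamma mice (median 430) against 232 to 432 CPM in proton mice (0.37, SE 0.08, p = 6.74e-04, adjusted p = 0.221). Hsp90ab1 was higher in 9 pairs (0.18, SE 0.07, p = 0.0202, adjusted p = 0.527) and Hsph1 in 9 pairs (0.36, SE 0.11, p = 0.00530, adjusted p = 0.370). Hspa8 was higher in 8 pairs (0.46, SE 0.13, p = 0.00469, adjusted p = 0.366). The ranges of both types overlapped for each of these genes. In all, 5 of the 10 genes had an unadjusted p under 0.05 and were higher after gamma radiation, where 4.1% of all genes were, and 0 were higher after proton radiation, where 3.76% of all genes were. As many as 4 genes were higher after gamma rays at 9 or 10 of 10 doses, where 2.06% of all genes were, and none after protons, where 1.86% were.

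**Figure D3:**
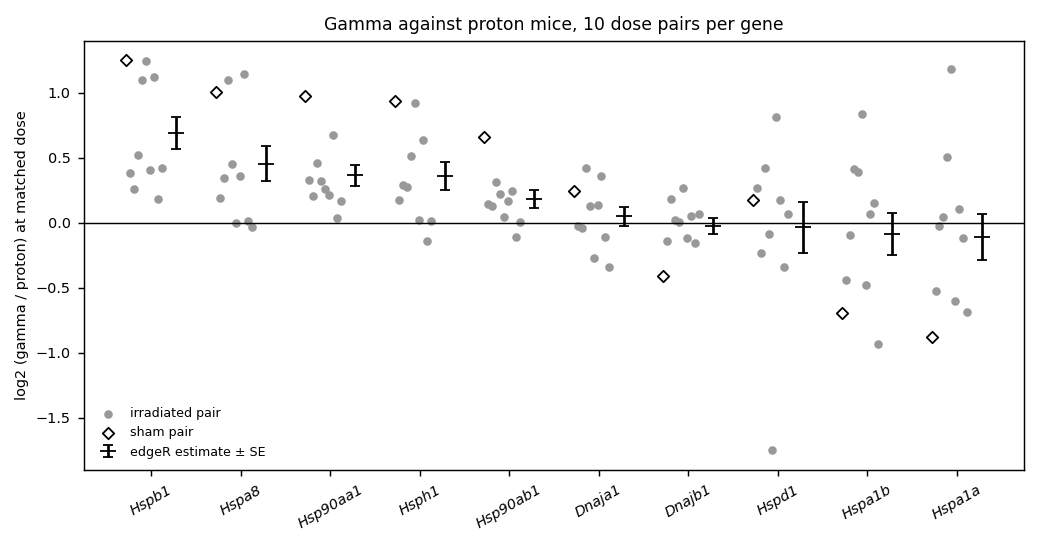
log2 ratio of gamma to proton CPM at each of the 10 doses (grey points for irradiated pairs, open diamonds for the sham pair) and the edgeR estimate with its standard error (black), by gene. All 10 pairs are above 0 for Hspb1 and Hsp90aa1, and the sham pair is the highest pair for Hspb1, Hsp90aa1, Hsph1 and Hsp90ab1.

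The sham pair, which had no radiation, showed the same direction. The gamma sham mouse exceeded the proton sham mouse by 1.25 log2 units for Hspb1, 1.01 for Hspa8, 0.97 for Hsp90aa1, 0.94 for Hsph1 and 0.66 for Hsp90ab1. For Hspb1, Hsp90aa1, Hsph1 and Hsp90ab1 this was the largest gap of the 10 pairs. Without the sham pair the estimates were 0.63 for Hspb1, 0.39 for Hspa8, 0.30 for Hsp90aa1, 0.30 for Hsph1 and 0.13 for Hsp90ab1, with no call. Differences at matched dose therefore cannot be told apart from differences between the places, machines and animals of the 2 arms.

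No difference was called for the other 5 genes. Hspa1a was higher after gamma in 4 pairs (-0.11, SE 0.18, adjusted p = 0.887), Hspa1b in 5 (-0.08, SE 0.16, adjusted p = 0.903), Dnaja1 in 5 (0.05, SE 0.07, adjusted p = 0.870), Dnajb1 in 6 (-0.02, SE 0.06, adjusted p = 0.940) and Hspd1 in 6 (-0.03, SE 0.20, adjusted p = 0.973). In the sham pair the inducible genes had the opposite sign to the Hsp90 genes, with -0.88 for Hspa1a and -0.69 for Hspa1b.

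Joint variation over the 20 mice was described by Pearson's r and Spearman's rho of log2 CPM, for 45 pairs of genes, with permutation tests adjusted over all other genes tested. Of the 45 pairs, 7 were correlated positively and 1 negatively at an adjusted p of 0.1 from the side of both genes. Over all genes tested, 3.45% of gene pairings with a member were called positive and 2.61% negative, from the member's side. Hspa8, Hsp90aa1, Hsp90ab1, Hsph1 and Hspb1 were set together after these correlations were seen, so high r among them is a description and not a test. Dnaja1 was left out, with r = 0.78 with Hspa8 and 0.14 with Hspb1. The 5 genes formed 10 pairs with r from 0.57 to 0.92. Hspa8 with Hspb1 was the lowest and was not called (permutation test, adjusted p = 0.214). The closest was Hspa8 with Hsp90aa1 (r = 0.92, permutation p = 1e-05, adjusted p = 0.0146; rho = 0.89, permutation p = 1e-05), where 1e-05 is the smallest p these permutations can give. It held within proton mice (r = 0.88), within gamma mice (r = 0.94) and without the 2 mice farthest from the median of Hspa8 (r = 0.87). Hsp90aa1 with Hsph1 was similar (r = 0.90, permutation p = 1e-05, adjusted p = 0.00820; rho = 0.95, permutation p = 1e-05), with r of 0.85 in proton mice, 0.95 in gamma mice and 0.84 without the 2 farthest mice.

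Hspb1 had lower values of r within gamma mice than within proton mice, a difference that was not tested. Its r with Hsp90ab1 was 0.74 over 20 mice (permutation p = 9.00e-05, adjusted p = 0.0656; rho = 0.80, permutation p = 6.00e-05), 0.88 in proton mice, 0.65 in gamma mice and 0.83 without the 2 farthest mice. With Hsp90aa1 it was 0.72 (permutation p = 0.000430, adjusted p = 0.0384; rho = 0.68, permutation p = 0.00153), 0.70 in proton mice and 0.28 in gamma mice, and 0.66 without the 2 farthest mice. Part of a correlation over both types is the difference in level between them. The residuals from each type's own dose line gave r = 0.54 and 0.55.

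Hspa1a and Hspa1b moved together (r = 0.91, permutation p = 1e-05, adjusted p = 0.131; rho = 0.86, permutation p = 2e-05), and the part of shared reads in this was not tested. That permutation p is the smallest possible, and no other gene reached it with Hspa1b. The adjusted p from the side of Hspa1b therefore could not pass 0.1 at any r, so this pair could not be called. Hspa1a and Hspa1b had weak correlations with the 5 genes set together above (Hspa8, Hsp90aa1, Hsp90ab1, Hsph1 and Hspb1). Over 20 mice these ran from -0.01 to 0.38 in 10 pairs. Within proton mice all 10 of these were above 0, from 0.43 to 0.79, and within gamma mice 8 of 10 were below 0, from -0.37 to 0.33. The difference between the types was not tested. Dnajb1, the J-domain partner of inducible Hsp70, had its highest values with Hspa1b (r = 0.50, permutation p = 0.0254, adjusted p = 0.99999; rho = 0.49, permutation p = 0.0321, r = 0.33 without the 2 farthest mice), and r from -0.17 to 0.28 with the 7 other genes. Dnaja1 was closest to Hspa8 (r = 0.78, permutation p = 6.00e-05, adjusted p = 0.131; rho = 0.61, permutation p = 0.00544), and r was 0.54 without the 2 farthest mice, the gamma sham mouse and the proton mouse at 125 cGy.

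**Figure D4:**
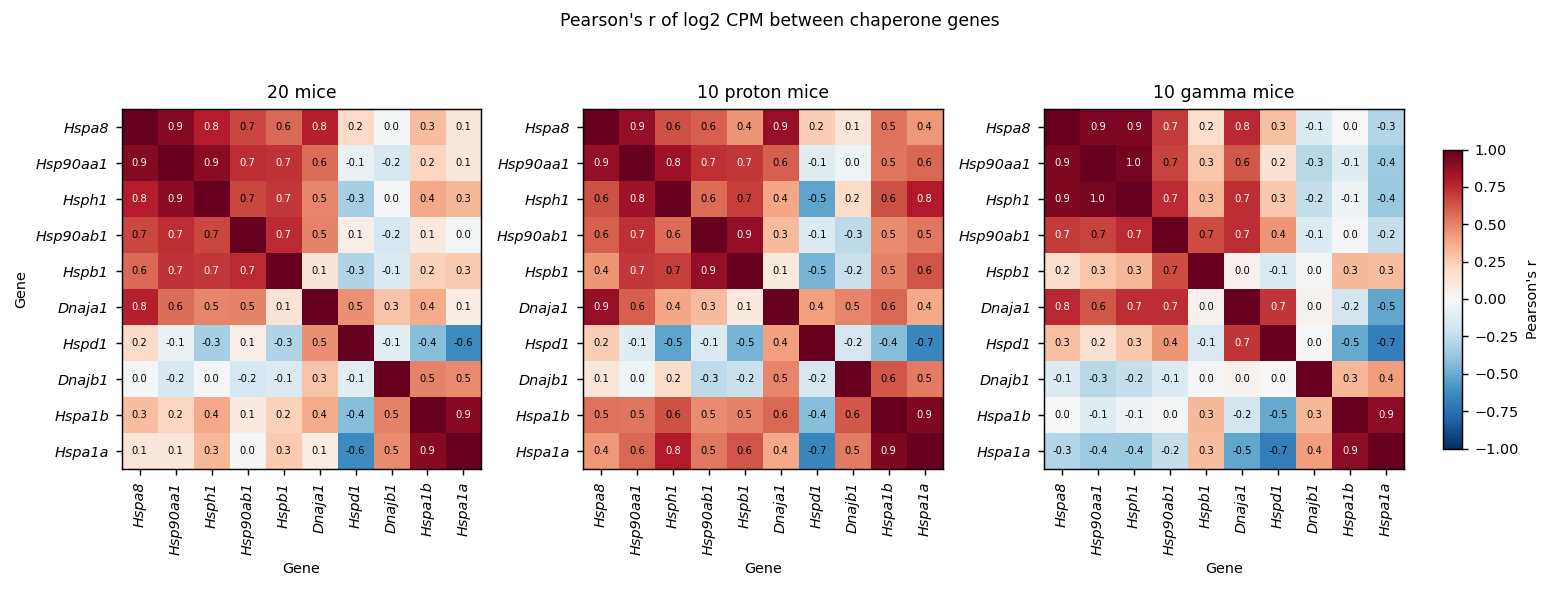
Pearson's r of log2 CPM between the 10 genes, on a colour scale from -1 (blue) to 1 (red), over 20 mice (left), 10 proton mice (middle) and 10 gamma mice (right). Hspa8, Hsp90aa1, Hsph1 and Hsp90ab1 form a red block in all 3 panels, and Hspa1a and Hspa1b have r of 0.43 to 0.79 with these genes and Hspb1 in proton mice and -0.37 to 0.33 in gamma mice.

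Hspd1 stood outside the group. Its level was 127 to 176 CPM in 9 proton mice and 475 CPM in the proton mouse at 75 cGy, the one with high brown adipocyte and heart muscle markers. In gamma mice it ranged from 136 to 225 CPM with a median of 148, and the highest value, at 100 cGy, was in the gamma mouse with the highest brown adipocyte markers (939 CPM). The part of other tissue in the Hspd1 levels was not tested. Its one called relation in the group was negative, with Hspa1a (r = -0.64, permutation p = 0.00258, adjusted p = 0.0976; rho = -0.37, permutation p = 0.108). Without the proton mouse at 75 cGy, r was -0.39. Within the gamma mice alone it was -0.68, and within the proton mice -0.65. The highest r of Hspd1 was with Dnaja1 (0.46, permutation p = 0.0589, adjusted p = 0.604, with rho = 0.68, permutation p = 0.00140). It was 0.71 in gamma mice, 0.41 in proton mice and 0.63 without the proton mouse at 75 cGy. Without that mouse, r of Hspd1 was 0.44 with Hspa8, 0.43 with Hsp90ab1, 0.37 with Hsp90aa1 and 0.36 with Hsph1. It was 0.13 with Hspb1, 0.08 with Dnajb1 and -0.15 with Hspa1b.

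**Figure D5:**
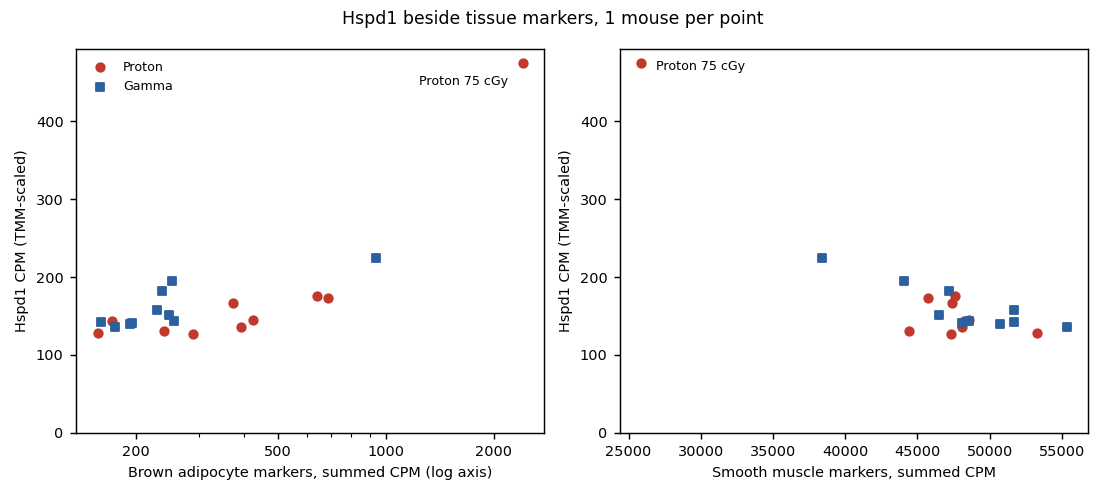
Hspd1 CPM (vertical axes from 0) against the summed CPM of 6 brown adipocyte markers (left, log axis) and of 5 smooth muscle markers (right), with 1 mouse per point, proton in red and gamma in blue. The proton mouse at 75 cGy has 475 CPM of Hspd1 with the highest brown adipocyte sum (2406 CPM) and the lowest smooth muscle sum (25899 CPM).

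The genes with profiles most like the chaperone genes were taken from 9807 other genes that averaged 50 or more counts, by Pearson's r over the 20 mice. For Hsp90aa1 the most similar were Ahsa1, which activates the Hsp90 ATPase (r = 0.94, rho = 0.90), Stip1, which bridges Hsp70 and Hsp90 (r = 0.90, rho = 0.91), and the RNA-binding protein Hnrnpm (r = 0.89). For Hsp90ab1 they were Ptges3, the Hsp90 co-chaperone p23 (r = 0.92, rho = 0.85), Stip1 (r = 0.87) and Ahsa1 (r = 0.84). Hspa8 was closest to Sfpq, an RNA-binding splicing factor (r = 0.90, rho = 0.89), Hnrnpm (r = 0.85) and Ahsa1 (r = 0.84). Hsph1 was closest to Srsf7, another splicing factor (r = 0.91, rho = 0.87), Haus8 (r = 0.90) and Gprasp1 (r = 0.89). Hspb1 was closest to Npr1, the receptor of atrial natriuretic peptide (r = 0.94, rho = 0.95), and to ORF63 (r = 0.92) and Rcan2, a regulator of calcineurin (r = 0.88).

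The other members had different neighbours. Hspa1b was closest to Tbc1d2b (r = 0.75), Jun, a subunit of AP-1 (r = 0.74), and Cyr61, an early response gene of the matrix (r = 0.74). Within gamma mice r was 0.34 for Tbc1d2b, 0.40 for Jun and 0.77 for Cyr61, against 0.84, 0.85 and 0.77 within proton mice. Dnaja1 was closest to Magt1 (r = 0.80), Dnaja4, another J-domain gene (r = 0.79), and Sfpq (r = 0.77). Hspd1 was closest to Hspa9, the mitochondrial Hsp70 (r = 0.96, rho = 0.80, and r = 0.86 without the proton mouse at 75 cGy). Prdx6 and Gpx3, which remove peroxides, followed (both r = 0.95, and 0.81 and 0.85 without that mouse). The nearest genes of Hspa1a were Vezf1 (r = 0.79) and Slc4a8 (r = 0.79), and those of Dnajb1 were Amotl2 (r = 0.66), Slc35d1 (r = 0.65) and Ppwd1 (r = 0.64). The mean of the 10 standardised profiles was closest to Banp (r = 0.88), Ahsa1 (r = 0.85), Hnrnpm (r = 0.81), Ctps (r = 0.81), Srsf7 (r = 0.80), Sfpq (r = 0.80), Mllt3 (r = 0.79) and Hnrnpul2 (r = 0.78). These are descriptions over the same 20 libraries, which share their depth and their tissue content.

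Other genes of protein folding were counted from lists in the same fits. Of 29 further heat shock targets and co-chaperones, 4 fell with gamma dose and none rose, where 2.21% of all genes fell and 5.44% rose. They were Ptges3 (-0.20, SE 0.05, adjusted p = 0.0418), Fkbp4, an Hsp90 immunophilin (-0.16, SE 0.05, adjusted p = 0.0598), Serpinh1, the collagen chaperone (-0.31, SE 0.09, adjusted p = 0.0665), and Bag3, an Hsp70 co-chaperone (-0.23, SE 0.08, adjusted p = 0.0981). The median slope of the 29 was -0.11, with 4 above 0. None of the 29 passed for protons (median 0.01), for the slope difference or at matched dose, where 27 of 29 were above 0 in the gamma direction with a median of 0.11, against 45.1% of all genes and a median of -0.01. Without the gamma mouse at 150 cGy none of the 29 passed for gamma dose, and without the gamma sham mouse 1 did, Ptges3.

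Of 10 chaperones of the endoplasmic reticulum, 4 fell with gamma dose, where 2.21% of all genes fell. They were Dnajb11 (-0.29, SE 0.07, adjusted p = 0.0278), Hyou1 (-0.38, SE 0.10, adjusted p = 0.0338), Calr, which folds glycoproteins (-0.30, SE 0.09, adjusted p = 0.0733), and Hspa5, the resident Hsp70 known as BiP (-0.40, SE 0.12, adjusted p = 0.0793). The median of the 10 slopes was -0.27 for gamma rays and 0.08 for protons, where none passed. The difference between the 2 slopes passed for none of the 10, so a difference between the types was not shown. None of the 10 passed without the gamma mouse at 150 cGy, and 2 of them, Dnajb11 and Hyou1, passed without the gamma mouse at 0, 25 or 125 cGy. The summed fibroblast markers were highest in the gamma sham mouse (4930 CPM) and lowest in the gamma mouse at 150 cGy (1509 CPM). Of these markers, Col1a1 had a gamma slope of -0.53 (SE 0.21, adjusted p = 0.159). The gamma slopes of Dcn (-0.04, SE 0.24), Lum (-0.11, SE 0.24) and Pdgfra (-0.11, SE 0.20) were smaller in size, and none of the 4 passed. The part of fibroblast markers in the falls of the endoplasmic reticulum and co-chaperone genes was not tested. The 6 mitochondrial chaperones and proteases and the 8 subunits of the cytosolic chaperonin TRiC had no call for either slope. The matrix co-chaperonin Hspe1, which lies head to head with Hspd1, had a gamma slope of -0.18 (SE 0.12, adjusted p = 0.495). The factor itself, Hsf1, had a gamma slope of -0.16 (SE 0.07, adjusted p = 0.218) and a proton slope of -0.03 (SE 0.07, adjusted p = 0.929), and Hsf2 was not called. Hsf1 passed for gamma dose when the proton mouse at 75 cGy was left out.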

How the data were processed

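Counts were the unit throughout. Per the study's methods and the labels, the authors aligned paired 100-base stranded reads to mm9 with STAR 2.5.2a (CASAVA 1.8.1 is also named in the submitters' processing notes), and PORT resampled every library to a common depth before the sense counts per gene were deposited, so totals of 6051657 to 6058006 hold no information on sequencing depth. A floor of 3 counts is 4.95e-05% of a library and covers counting error only. All 20 columns matched a mouse by name.

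From the deposited counts, slopes per 100 cGy were fitted with edgeR 4.0.16 (R 4.3.3, TMM, robust quasi-likelihood, an intercept and a slope of its own for each type, all 20 mice, genes averaging 5 or more counts). Gamma and proton levels were compared with dose as a factor of 10 levels. P-values were adjusted by Benjamini-Hochberg over the 13124 genes tested, with 0.1 as the threshold. Rank trends used the exact permutation distribution of Spearman's rho, one-sided in each direction, and correlations of log2 CPM (prior count 2) used 100000 permutations, two-sided. The adjustment of correlations over the 45 pairs alone is not given, because the members and lists were chosen with earlier results of these data known, and the larger of the adjusted p-values over all other genes, from the side of each gene, is printed. Exon lengths and mm9 positions came from GENCODE M1, promoters from RefSeq. The scripts were tested on simulated counts. Named genes were the 10 members, Hsf1, Hspe1, Bag3 and Hspa5, other listed genes that passed (at most 4 per list and comparison), and the genes with the most similar profiles (8 for the mean profile and 3 per member, of which 1 is not reported here), with Cdkn1a, Mdm2 and Aen as a check of exposure. Alternatives were DESeq2 1.42.0, no TMM, other filters, other dose scales, 0 to 125 cGy alone, and leaving out each mouse.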

Additional observations from a re-analysis of the deposited data

Results flagged for a closer look

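Values were set apart where the gap between the highest or lowest mouse and the next, divided by the range of the 10 mice of a radiation type, exceeded Dixon's 95% value of 0.466. Chance alone passes that mark in about 1 in 20 groups, and 3 of 20 groups did. The proton mouse at 75 cGy had 475 CPM of Hspd1, with a gap of 0.860 of the range, and it was also the mouse with the highest brown adipocyte and heart muscle markers. The gamma sham mouse had 301 CPM of Hsph1 (gap 0.506 of the range) and 120 CPM of Dnaja1 (0.489 of the range), the highest gamma values of both genes. The same sham mouse was the highest gamma mouse for 5 of the 10 chaperone genes, where 10.3% of all genes were highest.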

How the results depend on the processing

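Counts of called chaperone genes changed in few settings. For the gamma slope the count of 1, Hsp90ab1, became 0 with no filter beyond 1 count (adjusted p = 0.112) and over 0 to 125 cGy, and was 0 to 1 when a mouse was left out, 0 without the gamma mouse at 0, 150 or 200 cGy. The matched-dose count of 0 became 3 with DESeq2, where 53 of all genes were called higher and 17 lower in gamma mice. The number of gene pairs with r of at least 0.7, 9 over 20 mice, was 4 without the 2 mice farthest from the median of the first gene, 5 without TMM and 6 on residuals from the dose lines, each of them among the 9. It was 11 over 0 to 125 cGy (all 9 among them), 8 without the proton mouse at 75 cGy (7 of the 9), 8 in proton mice (7 of the 9) and 10 in gamma mice (5 of the 9). The counts of 0 for the proton slope, the difference of slopes and both rank trends stayed 0 in every setting run. With mice paired by dose as a replicate block, the difference of slopes again called 0 members (Hsp90ab1 0.18, p = 0.0816), and the matched-dose comparison with no replicate block called 0 (Hspb1 0.66, adjusted p = 0.175). Mice of the same dose deviated from their lines with r of -0.498 to 0.458 across genes, over 0.1 in 6 of 10 pairs. Among the 10 mice of the other type, 7 of 20 mice correlated best with the mouse of their own dose. Whether mice of the same dose were paired beyond their dose was not tested. For other gene lists, the gamma counts of 4 became 1 (co-chaperones) and 2 (endoplasmic reticulum) with no filter beyond 1 count, and 1 and 0 over 0 to 125 cGy. On the scale of log2(dose + 1) the endoplasmic reticulum list had 0. DESeq2 called 1 subunit of TRiC, Cct7, at matched dose.

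Directions turned only for estimates that were not called. The proton slope of Dnajb1, 0.0030, became -0.0093 without TMM, -0.0060 with DESeq2 and -0.0077 with a mean count of at least 50. With dose as a rank, the turned proton slopes, per rank, were -0.014 (Hspa1a), -0.0084 (Hspa1b), -0.0066 (Dnajb1) and 0.0096 (Hspd1), and the difference of slopes of Hspa1a was -0.012. Per unit of log2(dose + 1), they were -0.048 (Hspa1a), -0.047 (Hspa1b), -0.0041 (Hspa8), -0.0086 (Hsph1), -0.015 (Dnaja1), -0.022 (Dnajb1) and 0.038 (Hspd1), with 0.025 for the gamma slope of Hspa1a and differences of -0.073 (Hspa1a) and -0.040 (Hspa1b). Over 0 to 125 cGy the turned proton slopes were -0.45 (Hspa1a), -0.47 (Hspa1b), -0.70 (Hspa8), -0.44 (Hsp90aa1), -0.51 (Hsph1), -0.27 (Dnaja1), -0.041 (Dnajb1) and 0.31 (Hspd1), the turned differences -0.42 (Hspa1a), -0.30 (Hspa1b), -0.0034 (Hspa8), -0.016 (Dnaja1) and -0.31 (Hspb1), and the level difference of Hspa1b 0.0015. Left-out mice gave proton slopes of -0.34 to 0.090 (Hspa1a), -0.41 to 0.18 (Hspa1b), -0.19 to 0.23 (Hspa8), -0.096 to 0.13 (Hsp90aa1), -0.087 to 0.17 (Hsph1), -0.13 to 0.12 (Dnaja1), -0.055 to 0.087 (Dnajb1) and -0.12 to 0.16 (Hspd1), the proton mouse at 200 cGy giving the lowest for the first 7. The gamma slope of Dnajb1 ran from -0.0044 to 0.12. Differences of slopes ran from -0.29 to 0.17 (Hspa1a), -0.31 to 0.28 (Hspa1b), -0.019 to 0.59 (Hspa8), -0.0041 to 0.26 (Dnaja1), -0.12 to 0.021 (Dnajb1), -0.11 to 0.20 (Hspb1) and -0.036 to 0.24 (Hspd1). Level differences, with a dose pair left out, ran from -0.18 to 0.013 (Hspa1b), -0.047 to 0.023 (Dnajb1) and -0.13 to 0.15 (Hspd1, 0.00087 without the pair at 150 cGy). The causes were not tested. With 1 mouse per dose, small slopes of the low genes (Hspa1a, Hspa1b and Dnajb1, 117 to 430 counts) lie within the spread between mice.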
